A study of Homo sapiens with 6 samples.

Results

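The genes described here are the small nucleolar RNAs (snoRNAs) and small Cajal body RNAs (scaRNAs) that were detected in HCC827 cells. They were chosen by name and level, as the rows whose symbol starts with SNORD, SNORA or SCARNA and a digit and whose mean over the 6 libraries was at least 10. This gave 109 members of 412 rows with such a symbol, in a table of 28395 genes. The members were 63 C/D box snoRNAs (SNORD), 41 H/ACA box snoRNAs (SNORA) and 5 scaRNAs (SCARNA). The level that chose them was the signal, which is the number of reads on a gene divided by 1 size factor per library, and it is given below as a description.

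HCC827 is a lung adenocarcinoma line whose EGFR gene carries an activating in-frame deletion, and erlotinib is an inhibitor of the EGFR kinase. The cells received the solvent DMSO in 3 libraries (DMSO 1 to 3) and 1 μM erlotinib in 3 libraries (erlotinib 4 to 6), each for 24 h. The study's methods state in general that experiments were repeated independently, but nothing in the labels says that the libraries of a group came from separate cultures, so the p-values measure the spread between these libraries, which may be technical, and the line is a single model. The epithelial marker EPCAM (mean 9852 in DMSO and 9485 with erlotinib) and the lung markers NKX2-1 (3002 and 8644) and NAPSA (986 and 3733) were present in every library. Both lung markers were higher with erlotinib, and the third, SFTPB (8.23 and 10.5), lay below the minimum over the 6 libraries and was not tested. Of 5 epithelial markers all were present, 3 were lower with erlotinib (KRT8, KRT18 and KRT19, at -0.83, -1.25 and -0.39 on the log2 scale), and EPCAM and CDH1 were not called. Of 3 markers each of fibroblasts, leukocytes and endothelium, 1 of each was higher with erlotinib, COL1A1 (77.7 and 216), CD68 (2898 and 3394) and VWF (3.94 and 27.4), while the defining genes DCN (0 and 1.55), COL1A2 (0.997 and 0), PTPRC (1.78 and 4.75) and CD3E (1.81 and 1.54) were at or near 0 in both groups. VWF passed the minimum through its erlotinib libraries, so no rise is concluded for it. The other endothelial markers were low but not at 0, with PECAM1 at 15.7 and 10.4 and CDH5 at 3.78 and 10.1. The part of these markers in the results was not tested.

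SnoRNAs are short, non-coding RNAs of the nucleolus that guide the modification of ribosomal RNA. C/D box snoRNAs direct methylation of the ribose with fibrillarin, H/ACA box snoRNAs direct the change of uridine to pseudouridine with dyskerin, and scaRNAs do the same for spliceosomal RNAs in Cajal bodies. In human cells most of them are cut out of introns that are spliced from a host gene, and the mature forms carry no poly(A) tail.

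That last point limits what these libraries can show. The RNA was bound to a silica column, which keeps very short RNAs poorly, was enriched with oligo(dT), and was fragmented, so reads on a snoRNA can come from the mature RNA or from host transcripts that still hold the intron, and these sources cannot be told apart in these counts. The depth was also low. Of 20858083, 24641819 and 21172884 reads on genes in DMSO 1 to 3, the members held 3470, 4549 and 3993, and of 21944007, 20760204 and 21678395 reads in erlotinib 4 to 6 they held 2902, 2759 and 2809. As a share of reads this was 0.0166% (95% Wilson binomial interval 0.0161 to 0.0172), 0.0185% (0.0179 to 0.0190) and 0.0189% (0.0183 to 0.0195) in DMSO, and 0.0132% (0.0128 to 0.0137), 0.0133% (0.0128 to 0.0138) and 0.0130% (0.0125 to 0.0134) with erlotinib, where the intervals cover counting error only. The lowest DMSO share lay above the highest erlotinib share.

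The median member had a mean signal of 17.5, the range was 10.1 to 206, and 78 of the 109 members lay under 30. Of the 303 symbols below the minimum, 36 had a mean of 5 to 10, 94 lay above 0 and under 5, and 173 were listed at 0 in all 6 libraries. Those listed at 0 included all 48 copies of SNORD115 and 29 of the 30 copies of SNORD116, brain-enriched clusters of the imprinted Prader-Willi region, but also SNORD3A (U3) and SNORD118 (U8), which all cells need to process ribosomal RNA. Genes such as EIF4A1 and SMN1 were likewise listed at 0, so a listed 0 is not evidence of absence here. SNORD13 (U13) had 4 reads in DMSO 1 and none elsewhere. Just above the minimum lay SNORD60 (10.1), SNORD32A (10.3) and SNORD101 (10.4), and just below it SNORA71E (9.81), SNORA3B (9.58) and SNORD11 (9.39). Of the latter, SNORA71E had 3.40, 0 and 5.35 in DMSO and 23.1, 14.8 and 12.2 with erlotinib, whereas SNORD11 had 18.2, 13.002 and 12.8 in DMSO and 0, 2.97 and 9.36 with erlotinib.

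The first comparison asked how the members differed between erlotinib and DMSO. The summed signal of the members was 3936, 4225 and 4274 in DMSO and 2678, 2731 and 2629 with erlotinib, and every member that passed the test fell. With erlotinib 25 of the 109 members were lower and 0 were higher (limma on log2(signal + 1), Benjamini-Hochberg adjusted p under 0.05 over all 14215 features tested). At an unadjusted p under 0.05, 34 members were lower and 0 higher, and edgeR and DESeq2 on the whole reads also called 0 higher. Other settings did give a higher call, SCARNA21 with total count scaling or without DMSO 2, and SNORA71E with a minimum of 5. Among all features tested, 70.7% were called, 35.4% lower and 35.3% higher, so the share of members called lower (22.9%) was not above this background, whereas the lack of higher calls stood beside a share of 35.3%. Among features of low signal, higher calls outnumbered lower ones. Of the 1487 features with a mean of 10 to 30, 8.74% were lower and 34.6% higher, against 13 lower and 0 higher of 78 members, and 29.6% lay below 0, against 61 of the 78. Of the 1660 features with a mean of 30 to 100, 13.9% were lower and 47.0% higher, against 9 lower and 0 higher of 26 members, and 29.9% lay below 0, against 23 of the 26. Above a mean of 100, 3 of 5 members were lower and 0 higher, beside 42.2% lower and 33.6% higher of 11068 features, and all 5 lay below 0, beside 54.7%.

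**Figure D1:**
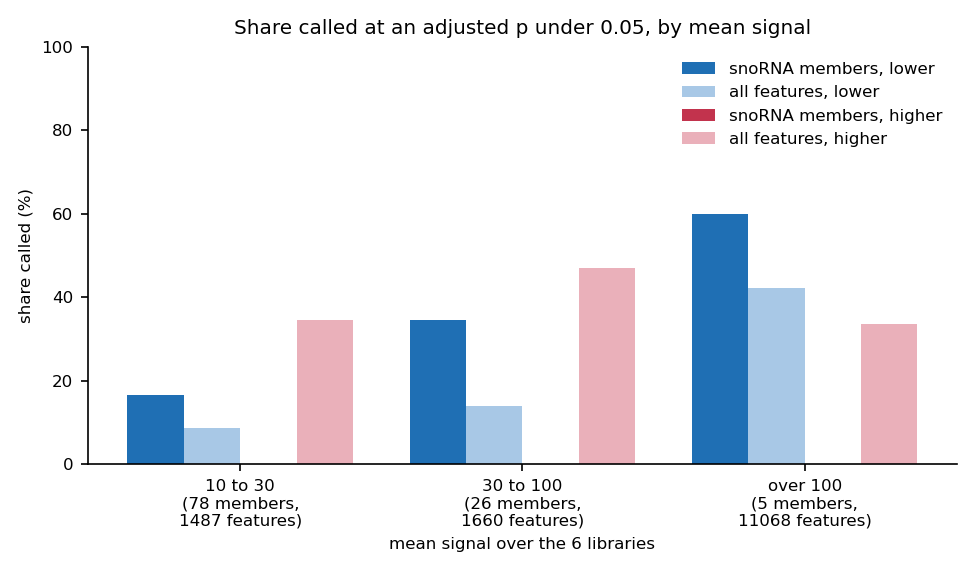
Share of snoRNA and scaRNA members and of all tested features called lower or higher with erlotinib (limma, adjusted p under 0.05), in percent, in 3 ranges of the mean signal. No member was called higher in any range, so those bars have no height, while 34.6%, 47.0% and 33.6% of all features were called higher.

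The median log2 fold change of the members was -0.55, beside 0.02 for all features tested, and 89 of the 109 members lay below 0, beside 49.1% of all features. In the 10 to 30 range the median was -0.52 for members and 0.69 for all features, and in the 30 to 100 range it was -0.56 and 0.57. When the libraries were scaled to their total counts the median was 0.19 for all features and -0.37 for the members. Relative to all features the members lay at -0.56 in one fit and -0.57 in the other. Such scaling shifts all features by nearly the same amount, so the second value is not separate support. This difference was -0.39 with a pseudocount of 10, -0.68 with no filter and -0.47 without erlotinib 6. The DMSO and erlotinib libraries did not overlap for 40 members with erlotinib lower, beside 36.9% of all features, and for 3 members with erlotinib higher, beside 36.7%. Members could pass the minimum through 1 group. The erlotinib mean was under 10 for 22 members, of which 9 were called lower (SNORA51, SNORA73B, SNORD14C, SNORD14D, SNORD14E, SNORD23, SNORD50B, SNORD63 and SNORD101). The DMSO mean was under 10 for 5 members (SCARNA21, SNORA60, SNORA68, SNORD35B and SNORD94), none of which was called. Means of at least 10 in both groups were found for 16 of the 25 called members.

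**Figure D2:**
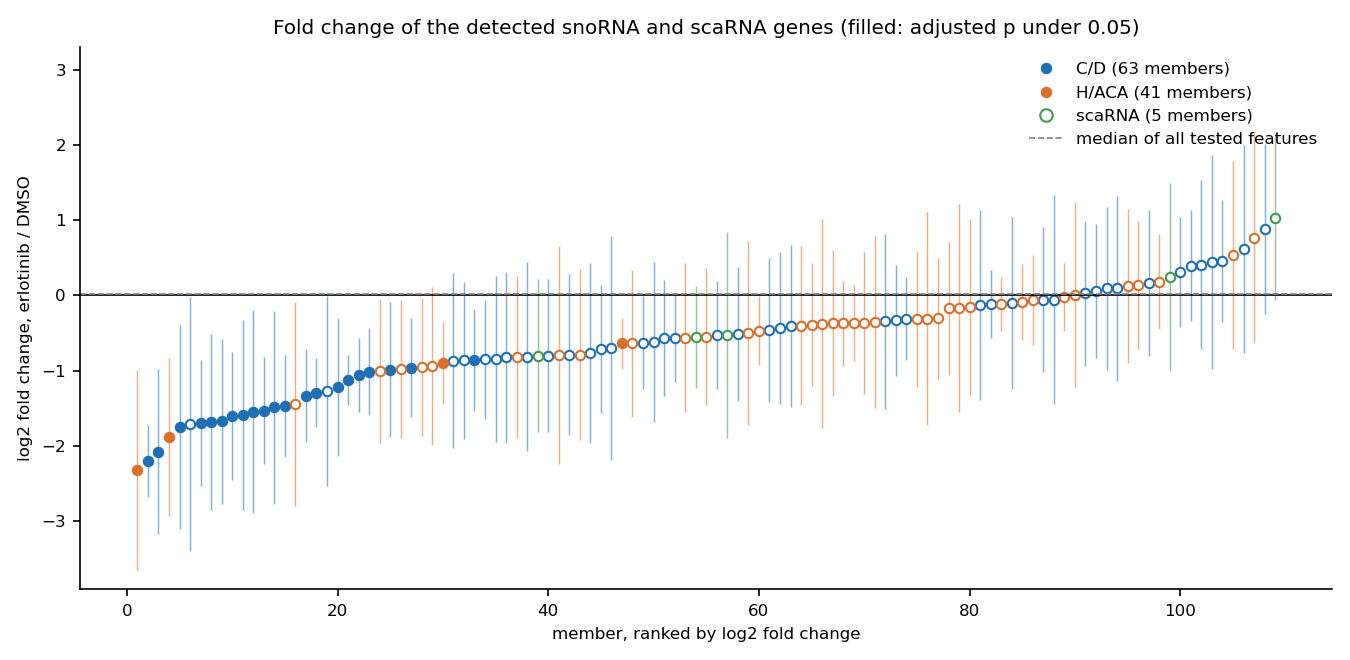
Log2 fold change (erlotinib over DMSO, on the log2(signal + 1) scale) of the 109 members in rank order, with 95% confidence intervals from limma (C/D blue, H/ACA orange, scaRNA green, dashed line at the median of all features). Filled points passed an adjusted p under 0.05. All 25 filled points lie below 0, and most intervals are wide because the counts are low.

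The members with the clearest falls were C/D box RNAs. SNORD17, the longest of the C/D members at 237 bases, had a signal of 138, 207 and 151 in DMSO and 35.1, 35.6 and 33.7 with erlotinib. Every erlotinib library lay below every DMSO library, and the log2 fold change with its standard error was -2.20 ± 0.23 (adjusted p = 3.4e-08, limma), the smallest p of any member. SNORD80, the member with the highest signal per kilobase (2906), had 267, 320.4 and 261 in DMSO and 133, 148 and 109.5 with erlotinib, a log2 fold change of -1.12 ± 0.16 (adjusted p = 2.8e-06, limma). SNORD31 had 126, 141 and 154 against 49.8, 73.3 and 49.6, a log2 fold change of -1.29 ± 0.22 (adjusted p = 2.5e-05, limma). In both the groups stood well apart. SNORD110 had 78.3, 108 and 67.4 in DMSO and 24.0, 30.7 and 45.9 with erlotinib, a log2 fold change of -1.33 ± 0.30 (adjusted p = 4.6e-04, limma). The largest fitted fall, that of the H/ACA member SNORA51, rested on fewer reads. Its signal was 30.6, 16.7 and 37.5 in DMSO and 8.31, 0.99 and 8.42 with erlotinib, where erlotinib 5 held 1 read, and its log2 fold change of -2.32 ± 0.64 (adjusted p = 0.0030, limma) became -1.57 without that library.

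The sequences of these members are shown 5′ to 3′ on their own strand of GRCh38, because they carry the features that place them in a class. Capitals mark the C box (searched as TGATGA within the first 15 bases) and the D box (CTGA within the last 15 bases) of C/D members, and the ACA close to the 3′ end of the H/ACA member. SNORD17 lies at chr20:17962710-17962946 (minus strand), SNORD80 at chr1:173864833-173864903 (minus), SNORD31 at chr11:62853326-62853393 (minus), SNORD110 at chr20:2654212-2654286 (plus) and SNORA51 at chr20:2655067-2655198 (plus).
SNORD17: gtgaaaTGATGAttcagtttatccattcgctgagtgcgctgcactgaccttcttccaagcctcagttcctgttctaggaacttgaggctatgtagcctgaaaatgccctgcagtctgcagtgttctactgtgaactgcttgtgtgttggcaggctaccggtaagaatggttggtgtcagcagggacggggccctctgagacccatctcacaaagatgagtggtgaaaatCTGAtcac
SNORD80: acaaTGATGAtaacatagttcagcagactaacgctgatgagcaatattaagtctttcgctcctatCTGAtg
SNORD31: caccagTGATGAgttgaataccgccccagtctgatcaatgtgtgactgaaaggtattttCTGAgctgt
SNORD110: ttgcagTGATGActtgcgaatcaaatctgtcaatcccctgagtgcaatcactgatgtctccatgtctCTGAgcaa
SNORA51: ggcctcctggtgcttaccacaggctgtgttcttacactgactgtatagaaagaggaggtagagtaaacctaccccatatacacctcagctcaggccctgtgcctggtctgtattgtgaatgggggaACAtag
Among the C/D members, TGATGA stood in this window in 40 of 63 and CTGA in 59 of 63, beside 67.9% and 90.7% of all 280 SNORD symbols. ACA stood 1 to 5 bases before the 3′ end in 37 of 41 H/ACA members, beside 90.7% of all 108 SNORA symbols. A match is a description of the letters only, searched on the strand of each gene. For 10 members that strand was itself taken from the box motifs, so their matches are not independent of it.

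The next comparison set C/D box members beside H/ACA box members. Of the 63 C/D members, 21 were lower with erlotinib (33.3%), and of the 41 H/ACA members 4 were (9.76%), beside 35.4% of all features. None of the 5 scaRNAs was called. The median log2 fold change was -0.77 for C/D members and -0.37 for H/ACA members, and 51 of 63 C/D members and 35 of 41 H/ACA members lay below 0. Single libraries moved the difference between these medians, which was -0.40 over all libraries, -0.21 without erlotinib 6 and -0.23 without DMSO 1. The H/ACA median itself was -0.54 without DMSO 1 and -0.19 without DMSO 3. The mean signal did not separate the classes, with a median of 17.7 for C/D and 17.4 for H/ACA members. Within the 10 to 30 range, 11 of 44 C/D and 2 of 30 H/ACA members were lower, and within the 30 to 100 range 8 of 16 and 1 of 9. Above 100 it was 2 of 3 and 1 of 2. The 10 to 30 counts hold all 9 called members that passed the minimum through DMSO, with an erlotinib mean under 10. Among them are the 2 H/ACA members of that range, SNORA51 and SNORA73B, so these counts are a description only.

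The summed signal of the C/D members was 2339, 2479 and 2543 in DMSO and 1416, 1475 and 1308 with erlotinib, and that of the H/ACA members was 1504, 1626 and 1636 in DMSO and 1143, 1189 and 1239 with erlotinib. Both sums were lower in every erlotinib library, with an erlotinib mean of 0.570 times the DMSO mean for C/D and 0.749 times for H/ACA. The ratio of the C/D to the H/ACA sum was 1.56, 1.52 and 1.55 in DMSO and 1.24, 1.24 and 1.06 with erlotinib. The groups did not overlap, a mean difference of -0.40 on the log2 scale (exact permutation test, two-sided, p = 0.10, the smallest that 3 against 3 libraries can give). The sums include members that passed the minimum through their DMSO libraries. Over all 280 SNORD and 108 SNORA symbols, with no minimum, the ratio was 1.64, 1.55 and 1.59 in DMSO and 1.24, 1.27 and 1.11 with erlotinib, and over the 45 C/D and 34 H/ACA members with a mean of at least 10 in both groups the difference was -0.41 (p = 0.10 in each exact permutation test, sums added after seeing the data). The classes also differ in their hosts. GAS5, SNHG1 and HSPA8 hold 17 C/D members, of which 12 were lower, and among the other 46 C/D members 9 were lower (19.6%) and the median was -0.49 on the log2 scale. Without DMSO 1 the lower H/ACA members numbered 7 in place of 4.

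Of the 4 H/ACA members that fell, SNORA40 was the most abundant. It had 261, 277 and 201 in DMSO and 144, 144 and 185 with erlotinib, a log2 fold change of -0.64 ± 0.17 (adjusted p = 0.0018, limma), the smallest fall of any called member. SNORA50C had 68.1, 96.6 and 74.9 against 37.8, 37.6 and 51.5, a log2 fold change of -0.90 (adjusted p = 0.0045, limma). For both the erlotinib libraries lay below all DMSO libraries, and SNORA73B and SNORA51 complete the 4.

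Several abundant members were not called. SNORA70 had 134, 169 and 148 in DMSO and 137, 128 and 152 with erlotinib, a log2 fold change of -0.11 (95% confidence interval -0.47 to 0.25, adjusted p = 0.58, limma). SNORD104, which had no host row in the table, had 99.8, 148 and 208 in DMSO and 150.4, 125 and 129 with erlotinib (log2 fold change -0.11, interval -0.56 to 0.34). SNORA18 lay at 83.9, 78.0 and 94.2 against 96.9, 81.2 and 74.9 (log2 fold change -0.02, interval -0.47 to 0.42). The groups overlapped for all 3, and none of these intervals reached -1. SNORA61 had 86.2, 117 and 99.5 against 79.4, 77.2 and 60.8, without overlap, but its adjusted p was 0.062 (limma, log2 fold change -0.47). It passed the threshold in 1 of 17 alternatives. SNORA32 gave -0.37 with an interval of -0.93 to 0.20.

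**Figure D3:**
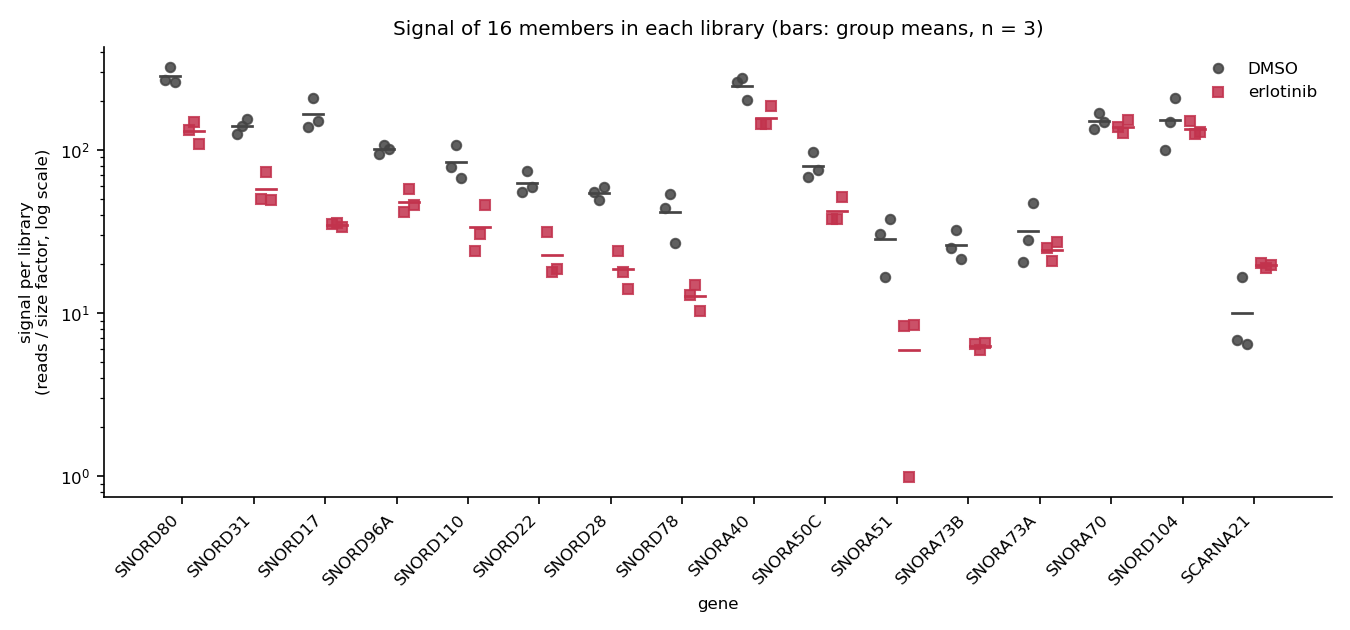
Signal (reads divided by the size factor, log axis) of 16 members in each DMSO (circles) and erlotinib (squares) library, with horizontal bars at the group means (n = 3). The first 8 C/D members and the next 4 H/ACA members (SNORA40 to SNORA73B) show no overlap between the groups, while SNORA73A, SNORA70 and SNORD104 overlap and SCARNA21 lies higher with erlotinib.

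The 5 scaRNAs had low counts. SCARNA21, which had the highest log2 fold change of all members, had 6.81, 16.7 and 6.42 in DMSO and 20.3, 18.8 and 19.7 with erlotinib. Its groups did not overlap, but the log2 fold change of 1.03 (95% confidence interval -0.06 to 2.11) had an adjusted p of 0.084 (limma). It passed the threshold without DMSO 2, the highest DMSO library (log2 fold change 1.43, adjusted p = 0.023, limma), and with total count scaling (1.19, adjusted p = 0.045, limma). With a DMSO mean of 9.98, SCARNA21 passed the minimum through its erlotinib libraries, so no rise is concluded from these values. SCARNA12 gave -0.55 (interval -1.23 to 0.13), SCARNA22 -0.80 (-1.82 to 0.22), SCARNA10 -0.52 (-1.89 to 0.85) and SCARNA2 0.25 (-1.01 to 1.498). The remaining scaRNAs looked for by role, SCARNA5, SCARNA6, SCARNA7, SCARNA9 and SCARNA17, lay below the minimum, and SCARNA13 was listed at 0. Besides SCARNA21, the libraries stood apart with erlotinib higher for SNORD94 (10.2, 4.64 and 13.9 against 16.6, 16.8 and 17.8) and SNORD95 (22.7, 14.9 and 21.4 against 25.8, 26.7 and 28.1), whose adjusted p-values were 0.15 and 0.30 (limma). Like SCARNA21, SNORD94 passed the minimum through erlotinib, with a DMSO mean of 9.59, so the lack of overlap in these members is a description only.

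A further comparison set each member beside its host gene. A host on the same strand with a row of its own was found for 105 members, in 54 genes. Of these members 46 overlapped an exon of some host transcript, 33 overlapped an exon only of transcripts marked as retaining an intron, and 26 lay wholly between exons (GENCODE annotation). How the counting treated reads shared by a snoRNA and a host exon is not stated in the sources used here. The C/D members lay close to the end of their intron, at a median of 98 bases from its 3′ end, with 30 of 61 at 60 to 110 bases, and the H/ACA members at a median of 200 bases, with 8 of 40 in that window.

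Most called members lay in a host that fell. Of the 24 called members with a host row, 18 had a host that was itself lower, 3 a host that was higher and 3 a host that was neither, out of 53, 23 and 29 members in such hosts. Across the 105 pairs, which share hosts and are not independent, Pearson's r between the log2 fold changes of member and host was 0.29, and Spearman's rho was 0.30. Leaving out ribosomal protein hosts, some of which had low values, and the readthrough gene SENP3-EIF4A1, r was 0.49 over 67 pairs (a choice made after seeing the data). It was -0.19 over the 35 pairs with a ribosomal protein host, and over the 26 members that lay wholly between exons r was 0.017 and rho -0.089. The members lay below their host in 68 of 105 pairs, with a median difference of -0.21 on the log2 scale. This median became 0.06 over the 26 members that lay wholly between exons, where 13 were below and 13 above, and -0.05 with a pseudocount of 10, so no general difference between members and hosts can be read from it.

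**Figure D4:**
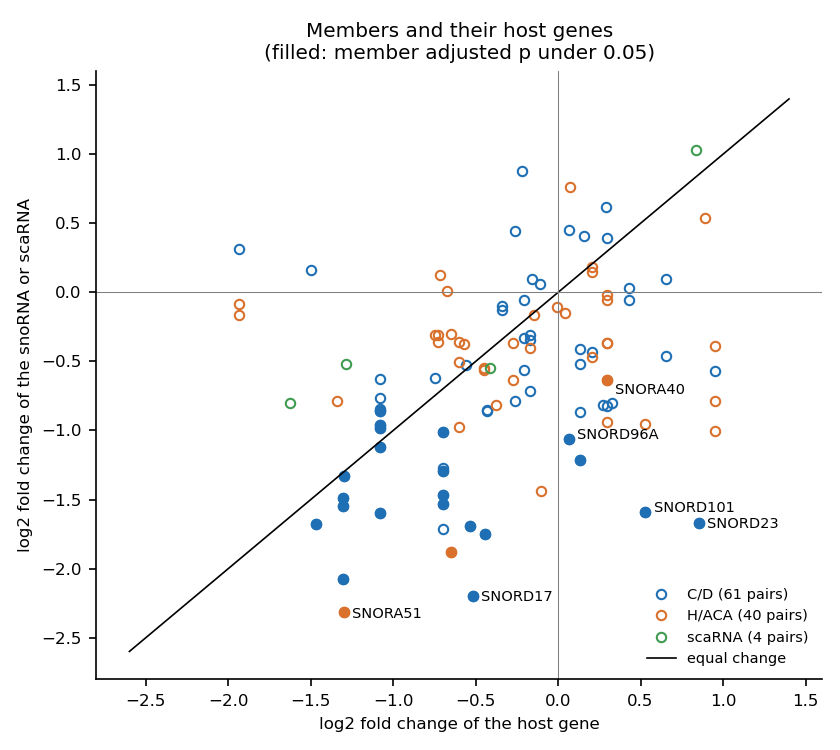
Log2 fold change (erlotinib over DMSO) of each member against that of its host gene, for 105 pairs (C/D blue, H/ACA orange, scaRNA green), with filled points for members at an adjusted p under 0.05. The line marks equal change. SNORD23 and SNORD101 fell in hosts that rose, and SNORA51 and most other filled points have a host below 0.

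GAS5, a non-coding RNA whose introns hold C/D snoRNAs, had 8 members, the most of any host together with TAF1D. GAS5 itself had 565, 715 and 663 in DMSO and 306, 319.8 and 286 with erlotinib, a log2 fold change of -1.08 (adjusted p = 4.3e-08, limma). All 8 members (SNORD44, SNORD47, SNORD74, SNORD77, SNORD78, SNORD79, SNORD80 and SNORD81) lay below 0, between -1.60 and -0.63, and SNORD44, SNORD74, SNORD77, SNORD78 and SNORD80 were called. The deepest fall was that of SNORD78, with 44.2, 53.9 and 26.8 against 12.9, 14.8 and 10.3 (log2 fold change -1.60, adjusted p = 0.0016, limma). SNORD44, SNORD74 and SNORD77 lost their call when 1 library was left out, with adjusted p-values (limma) of 0.054 for SNORD44 without DMSO 3. They were 0.098, 0.067 and 0.068 for SNORD74 without DMSO 1, DMSO 3 and erlotinib 6, and 0.080, 0.16, 0.12 and 0.13 for SNORD77 without DMSO 1, DMSO 3, erlotinib 4 and erlotinib 6. SNORD74 also lost its call with total count scaling (adjusted p = 0.066, limma) and with no filter (0.053). SNORD77 was not called by edgeR (adjusted p = 0.055) or DESeq2 (0.066), nor by limma with TMM factors (0.051), total count scaling (0.095), a pseudocount of 0.1 (0.055) or no filter (0.076). Their summed signal was 0.918, 0.786 and 0.811 times the host signal in DMSO and 0.822, 0.916 and 0.827 times with erlotinib, with overlapping groups (difference 0.03 on the log2 scale, and 0.015 without SNORD79 and SNORD81, whose erlotinib means were under 10, with p = 0.60 and 0.80 in the two-sided exact permutation test).

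SNHG1, a further non-coding host of C/D snoRNAs, had 1776, 2412 and 2158 in DMSO and 1404, 1227 and 1249.7 with erlotinib (log2 fold change -0.70, adjusted p = 1.5e-06, limma). Its 6 members (SNORD22, SNORD25, SNORD26, SNORD28, SNORD30 and SNORD31) lay between -1.71 and -1.01. SNORD22 (U22), an RNA needed to form 18S ribosomal RNA, had 55.6, 74.3 and 58.9 in DMSO and 31.4, 17.8 and 18.7 with erlotinib (log2 fold change -1.47, adjusted p = 4.4e-04, limma). SNORD28 gave -1.53 and SNORD25 -1.01, both called. SNORD30 gave -1.71 and was not called (adjusted p = 0.065, limma). This value rests on erlotinib 6, which held 0 reads, and without that library it was -0.46, beside -0.68 for SNHG1. The sum of the 6 was 0.206, 0.156 and 0.188 times the host signal in DMSO and 0.123, 0.148 and 0.103 times with erlotinib, without overlap (difference -0.56 on the log2 scale). SNORD26 and SNORD30 had erlotinib means under 10 (9.16 and 8.29) and passed the minimum through DMSO. Over the other 4 members the difference was -0.59, also without overlap (exact permutation test, two-sided, p = 0.10, a sum added after seeing the data).

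TAF1D, a subunit of the factor that recruits RNA polymerase I, rose from 1031, 1106 and 917 to 1283, 1208 and 1246 (log2 fold change 0.29, adjusted p = 0.0049, limma). Of its 8 members only SNORA40 was called, and the others were SNORA1, SNORA8, SNORA18, SNORA25, SNORA32, SNORD5 and SNORD6, with log2 fold changes between -0.94 and 0.40. The sum of all 8 was 0.569, 0.568 and 0.602 times the host signal in DMSO and 0.348, 0.346 and 0.399 times with erlotinib, so the groups stood apart (difference -0.67 on the log2 scale, and -0.66 without SNORD6, whose erlotinib mean was under 10, with p = 0.10 in each two-sided exact permutation test). SNORA40 weighs heavily in this sum, with means of 246 in DMSO and 158 with erlotinib, beside 589 and 454 for all 8. The ratio without SNORA40 was not tested. The translation factor gene EIF4A2 also rose, from 3097, 3516 and 3301 to 6758, 6294 and 6097 (log2 fold change 0.95, adjusted p = 1.1e-10, limma), whereas SNORA81, SNORA4, SNORD2 and SNORA63 within it gave -1.001, -0.79, -0.57 and -0.39, none called. The sum of these 4 was 135, 87.3 and 133 in DMSO and 75.7, 76.2 and 67.4 with erlotinib.

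**Figure D5:**
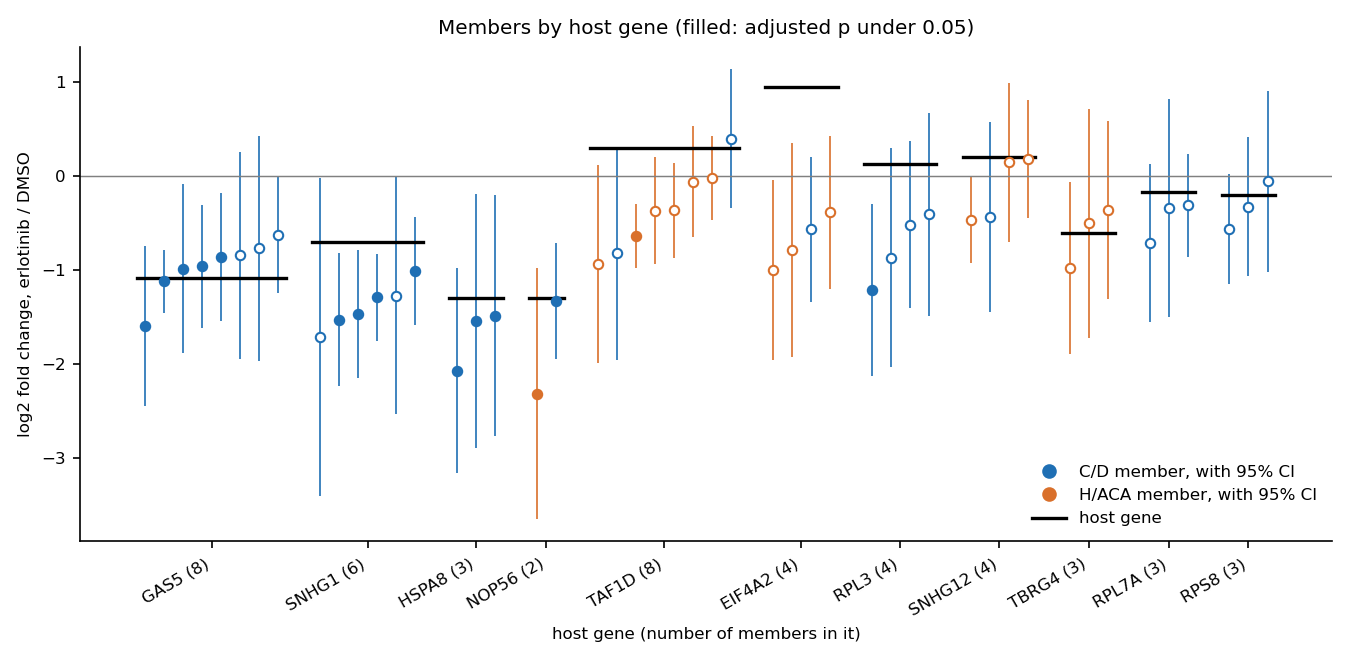
Log2 fold change (erlotinib over DMSO) with 95% confidence interval of the members in 11 host genes (C/D blue, H/ACA orange), with the host's own value as a black line. Filled points passed an adjusted p under 0.05. In GAS5 the members lie around their host's line, in SNHG1 below it, and in EIF4A2 all 4 members lie below 0 while the host lies at 0.95.

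Single members also departed from their hosts. SNORD17 fell by 2.20 on the log2 scale, and its host SNX5, a sorting nexin, had 1196, 1569 and 1334 in DMSO and 1022, 916 and 909.9 with erlotinib (log2 fold change -0.52, adjusted p = 7.0e-05, limma). SNORD17 lay in an intron of 11337 bases with no exon over it. SNORD23 had 19.3, 23.2 and 42.8 against 4.61, 6.93 and 14.041 (log2 fold change -1.67, adjusted p = 0.0078, limma; 0.061 without DMSO 3), while its host NOP53, a ribosome biogenesis factor, rose from 361, 235 and 274 to 510.3, 543 and 497 (log2 fold change 0.85, adjusted p = 1.2e-05, limma). The difference between member and host was -1.68 for SNORD17 and -2.52 for SNORD23, given with no test because both were chosen for their size, and SNORD23, with an erlotinib mean of 8.53, passed the minimum through its DMSO libraries. Other members lay above their hosts, among them SNORD58C in RPL17 (0.16 and -1.498), SNORD94 in PTCD3 (0.88 and -0.22) and SNORA26 in DANCR (0.12 and -0.72). Of these, SNORD94, with a DMSO mean of 9.59, passed the minimum through its erlotinib libraries. The members SNORD10, SNORA67 and SNORA48, set beside SENP3-EIF4A1, gave 0.32, -0.09 and -0.17, but that readthrough gene stands in for EIF4A1 and held 13, 26 and 13 reads in DMSO and 4, 3 and 5 with erlotinib, so no difference from a host is read for them. SNORD58C and SNORA26 also overlap an annotated gene on the other strand, and without a stated strand setting their reads cannot be told apart. Over all 105 pairs the ratio was without overlap in 23 pairs with erlotinib lower (21.9%) and in 8 with erlotinib higher (7.62%), of which 3 are the members beside SENP3-EIF4A1. No background share for ratios of other gene pairs stands beside these counts, so they are a description only.

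Of the other called members, SNORD101 (17.016, 15.8 and 14.984 against 3.69, 6.93 and 3.74) fell in RPS12, whose own log2 fold change was 0.53. SNORD101 was also the only member with an erlotinib mean under 5, and its call was lost without DMSO 1, erlotinib 4 or erlotinib 6 (adjusted p = 0.063, 0.056 and 0.056, limma). SNORD83B in RPL3 (log2 fold change -1.21), SNORD88B in C19orf48 (-1.69), SNORD63 in the chaperone gene HSPA9 (-1.68) and SNORD50B in SNHG5 (-1.75) were lower as well. Single libraries decided 3 of these calls, since the adjusted p (limma) was 0.093 for SNORD83B without DMSO 3, 0.081 without erlotinib 4 and 0.0502 without erlotinib 6, 0.052 for SNORD63 without erlotinib 5, and 0.069, 0.073 and 0.090 for SNORD50B without DMSO 1, DMSO 2 and erlotinib 4. RACK1, a ribosomal scaffold protein, showed 2 members that differed. SNORD96A fell from 94.2, 107 and 102 to 41.5, 57.4 and 45.9 (log2 fold change -1.06, adjusted p = 4.2e-04, limma), and SNORD95 gave 0.45, while RACK1 itself gave 0.07. The ratio of SNORD96A to SNORD95 was 4.15, 7.19 and 4.75 in DMSO and 1.61, 2.15 and 1.63 with erlotinib, a pair chosen with the values known and so given with no test.

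Families with near copies could be compared by sequence. SNORD14 (U14), an RNA that base-pairs with 18S ribosomal RNA during its processing, was detected as 5 copies. SNORD14A and SNORD14B lie in RPS13, a ribosomal protein gene, and SNORD14C, SNORD14D and SNORD14E lie in HSPA8, the gene of a constitutive chaperone of the HSP70 family. They are shown because the copies of one family lie in different hosts, with the boxes in capitals as above (SNORD14D has no CTGA in its window). Their positions on the minus strand of GRCh38 are chr11:17074653-17074744, chr11:17075778-17075868, chr11:123059335-123059422, chr11:123058909-123058995 and chr11:123058077-123058156.
SNORD14A: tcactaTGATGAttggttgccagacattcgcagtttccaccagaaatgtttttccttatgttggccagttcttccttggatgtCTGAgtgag
SNORD14B: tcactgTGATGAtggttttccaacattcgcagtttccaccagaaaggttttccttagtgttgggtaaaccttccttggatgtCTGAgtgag
SNORD14C: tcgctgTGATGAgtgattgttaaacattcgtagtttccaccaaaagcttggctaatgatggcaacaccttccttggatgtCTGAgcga
SNORD14D: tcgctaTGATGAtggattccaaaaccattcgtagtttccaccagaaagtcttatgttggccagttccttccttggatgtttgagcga
SNORD14E: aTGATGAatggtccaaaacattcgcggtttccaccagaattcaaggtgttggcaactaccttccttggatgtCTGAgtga
The copies were 72.0% to 86.0% identical to each other, and each had 1 match in the genome at 97% identity or more, so reads that map uniquely can be told apart. In HSPA8, SNORD14E had 30.6, 36.2 and 20.3 in DMSO and 3.69, 5.94 and 9.36 with erlotinib (log2 fold change -2.07, adjusted p = 0.0014, limma). SNORD14C gave -1.49 and SNORD14D -1.55, both called (adjusted p = 0.036 and 0.039, limma), but the adjusted p was 0.12, 0.087, 0.12 and 0.051 for SNORD14C without DMSO 1, DMSO 2, erlotinib 4 and erlotinib 5, and 0.051 to 0.12 for SNORD14D without each library but erlotinib 4. Both also lost the call with total count scaling (adjusted p = 0.058 and 0.062, limma) and with a pseudocount of 0.1 (0.051 and 0.052), and SNORD14D was not called by edgeR (adjusted p = 0.052) or DESeq2 (0.082). The log2 fold change of SNORD14D ranged from -2.16 to -1.22 when 1 library was left out. HSPA8 fell from 32786, 32983 and 33028 to 13026, 13199 and 13852 (log2 fold change -1.30, adjusted p = 8.7e-14, limma). In RPS13, SNORD14B gave -0.79 (95% confidence interval -1.86 to 0.28) and SNORD14A 0.45 (-0.97 to 1.86), neither called, and RPS13 gave -0.26. The sum of the HSPA8 copies over that of the RPS13 copies was 1.81, 4.05 and 1.26 in DMSO and 0.875, 0.750 and 0.688 with erlotinib, and the high DMSO 2 value came with only 2 reads on SNORD14A. This ratio is a description with no test, since the 3 HSPA8 copies had erlotinib means of 5.71, 6.23 and 6.33 and passed the minimum of 10 through their DMSO libraries, and the contrast was chosen with the values known.

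SNORA73A and SNORA73B (U17), which take part in the cleavage of the precursor of 18S ribosomal RNA, both lie within RCC1, a regulator of the Ran GTPase, at chr1:28507365-28507571 and chr1:28508558-28508762 (plus strand). They are shown because they were 93.2% identical, the highest value between any 2 members, and yet had different values. Capitals mark the ACA.
SNORA73A: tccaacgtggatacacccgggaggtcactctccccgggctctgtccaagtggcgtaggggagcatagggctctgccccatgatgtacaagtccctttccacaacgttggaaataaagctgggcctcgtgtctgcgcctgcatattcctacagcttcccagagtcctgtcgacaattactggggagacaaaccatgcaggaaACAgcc
SNORA73B: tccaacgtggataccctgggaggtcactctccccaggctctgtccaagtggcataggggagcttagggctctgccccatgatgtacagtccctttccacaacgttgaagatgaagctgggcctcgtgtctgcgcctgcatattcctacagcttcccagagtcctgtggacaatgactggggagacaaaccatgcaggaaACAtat
SNORA73B had 24.957, 32.5 and 21.4 in DMSO and 6.46, 5.94 and 6.55 with erlotinib (log2 fold change -1.88, adjusted p = 0.0022, limma). SNORA73A had 20.4, 27.9 and 47.1 in DMSO and 24.9, 20.8 and 27.1 with erlotinib (log2 fold change -0.30, 95% confidence interval -1.10 to 0.50). The groups stood apart for SNORA73B and overlapped for SNORA73A, and RCC1 gave -0.65. The ratio of SNORA73B to SNORA73A was 1.22, 1.17 and 0.455 in DMSO and 0.259, 0.286 and 0.241 with erlotinib, given with no test because the pair was chosen with the values known and SNORA73B, with an erlotinib mean of 6.32, passed the minimum through its DMSO libraries. As the copies are so alike, some reads could map to both and would not be counted. SNORA73B had 1 match in the genome at 97% identity or more, and the share of reads that map to both was not examined. Both levels are therefore uncertain. SNORD62B, SNORA10 and SNORA15 each had at least 1 more match in the genome at 97% identity or more. Their reads could also map to more than 1 place, so their levels are uncertain too, and none of the 3 was called.

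The genes of the proteins that bind and process snoRNAs were examined from a list, which was written with earlier results of these data known. Of 37 genes, 33 were tested, 32 were lower with erlotinib and 1 was higher. Their log2 fold changes had a median of -0.996, beside 35.4% lower and a median of 0.02 among all features. The C/D core proteins were all lower. The methyltransferase fibrillarin (FBL) had 1455, 1056 and 1455 in DMSO and 612, 696 and 578 with erlotinib (log2 fold change -1.06, adjusted p = 4.5e-08, limma), and NOP56, NOP58 and SNU13 gave -1.30, -1.35 and -1.31. NOP56 is also the host of SNORD110 and SNORA51. The H/ACA core proteins were lower as well. The pseudouridine synthase dyskerin (DKC1) had 8568, 8750.1 and 8225 in DMSO and 2648, 2613 and 2608 with erlotinib (log2 fold change -1.70, adjusted p = 2.4e-15, limma), and NOP10, GAR1 and NHP2 gave -1.13, -0.95 and -0.71.

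All 10 tested assembly factors were lower, among them the chaperone HSP90AA1 (-2.13) and the AAA+ ATPase RUVBL1 (-1.20). All 6 tested genes of Cajal bodies, cap methylation and transport were lower, with TCOF1, a nucleolar phosphoprotein of ribosomal RNA synthesis, at -2.88 and its relative NOLC1 at -1.68. In the group for processing and turnover 8 of 9 were lower, including the lariat debranching enzyme DBR1 (-0.74), and XRN1, a cytoplasmic exonuclease, was higher (0.48). Genes listed at 0 in this list were ZNHIT3, TAF9, SMN1 and PARN. The median standard error of a log2 fold change was 0.47 for members and 0.11 for all features.

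Of 28 SNHG genes and other known snoRNA hosts, 22 were tested, 10 were lower and 6 higher, beside 35.4% lower and 35.3% higher among all features. Most of the list is non-coding, but TAF1D and RACK1 code for proteins. Both are counted among the 22, TAF1D as higher and RACK1 as neither. The median over the 22 was -0.45 on the log2 scale. SNHG4 gave -1.004 and DANCR -0.72, while EPB41L4A-AS1 (1.44), SNHG11 (0.89) and ZFAS1 (0.43) were higher. SNORD12 and SNORD12B in ZFAS1 gave 0.03 and -0.06, and SNORA60 in SNHG11 gave 0.54, none called. With total count scaling 10 of the 22 were higher.

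Of 24 other small structured RNAs, 12 were listed at 0 and 5 were tested, of which 1 was higher and 0 were lower (limma, and likewise edgeR and DESeq2), with 95% confidence intervals that included 0 for the other 4. RN7SK, which holds the elongation factor P-TEFb inactive, had 143, 135 and 156 in DMSO and 305, 261 and 259 with erlotinib, and rose without overlap (log2 fold change 0.92, adjusted p = 1.3e-05, limma). RN7SL1 and RN7SL2, the RNA of the signal recognition particle, gave -0.14 and -0.25, neither called, with DMSO 2 the lowest DMSO library for both (2786 and 3941). RMRP, which acts in ribosomal RNA processing, gave -0.74 (95% confidence interval -1.80 to 0.33), and RPPH1, the RNA of RNase P, gave 0.00 (-0.93 to 0.94). Without DMSO 2, 2 of the 5 were called lower, and without erlotinib 5, 1 was, in place of 0.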

How the data were processed

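RNA of HCC827 cells was sequenced in 3 DMSO and 3 erlotinib libraries (1 μM, 24 h). The authors enriched polyadenylated RNA, aligned the reads to GRCh38 with Bowtie2 2.3.4, used featureCounts 1.6.3 to count the reads of each gene that map to 1 place and used DESeq2 1.18.1. The deposited values are a signal, reads divided by 1 size factor per library, and 100% of them gave whole reads (tolerance 0.05 reads). The division was read from the values, and the strand setting is not given in the sources used here. Rows without a symbol (475) could hold no member. No column was left unused (0 columns).

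The members, lists and tests were chosen with earlier results of these data known. As the table holds a signal, the main test was limma 3.58.1 (R 4.3.3, trend, two-sided) on log2(signal + 1) over the 14215 features with a mean of at least 10, with Benjamini-Hochberg adjustment and a threshold of 0.05. Fold changes on this scale understate those of low genes. Ratios of summed signals, with 1 value per library, were tested with the exact permutation test of scipy 1.17.1, except where no test is given. Alternatives were edgeR 4.0.16 and DESeq2 1.42.0 on the recovered reads, TMM and total count scaling, pseudocounts of 0.1 and 10, other filters and minimums, a threshold of 0.01, and each library left out. The fits were tested on simulated data.

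Positions came from RefSeq (GRCh38.p14), which matched all 412 symbols. Strand and host exons came from GENCODE release 44, or for 10 members without an entry there from the box motifs. EIF4A1 was listed at 0, so its 3 members were set beside the readthrough gene SENP3-EIF4A1. Copies in the genome were counted with BLAST 2.17.0.

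Named were the called members with the largest changes, those highest per kilobase in each class, members of textbook role, the 3 symbols on either side of the minimum, members that passed through 1 group only, their hosts, the core proteins and the list members with the largest changes. The other called members, SNORD12, SNORD12B, SNORA60, SNORD94, SNORD58C, SNORA26, SNORD10, SNORA67, SNORA48 and the members of the largest host groups were added after their values were seen.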

Additional observations from a re-analysis of the deposited data

How the results depend on the processing

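The 25 lower members numbered 16 with an adjusted p under 0.01 and 16 with a member minimum of 20 (47 members), and 20 to 26 when 1 library was left out. Members called higher numbered 0, but 1 with total count scaling (SCARNA21), 1 with a minimum of 5 (SNORA71E) and 0 to 1 with a library left out. SCARNA21 and SNORA71E had DMSO means of 9.98 and 2.92 and passed the minimum through their erlotinib libraries. C/D members called lower (21) numbered 12 with an adjusted p under 0.01 and 15 to 21 with a library left out. H/ACA members called lower (4) numbered 8 with a pseudocount of 10, 7 with a minimum of 5, 2 with a minimum of 20 and 5 to 7 with a library left out, and 1 was called higher with a minimum of 5. EdgeR called 24 lower and 0 higher and DESeq2 23 and 0. The median log2 fold change was -0.37 over all members, -0.61 for C/D and -0.20 for H/ACA with total count scaling, and -0.38 over all members and -0.47 for C/D with a pseudocount of 10, while C/D gave -0.86 with a minimum of 20. With a library left out it was -0.60 to -0.45 over all members, -0.82 to -0.57 for C/D and -0.54 to -0.19 for H/ACA. The C/D median lay below the H/ACA median in all 16 alternatives, by a difference of -0.49 (minimum of 20) to -0.20 (pseudocount of 10), and by -0.42 to -0.21 with a library left out.

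The median difference between member and host was -0.21, 0.064 without members over exons, -0.35 without ribosomal protein and readthrough hosts, -0.050 with a pseudocount of 10 and -0.29 to -0.18 with a library left out, and members lay below the host in 13 of 26 pairs, 45 of 67 pairs and 59 to 72 pairs. SNHG and other hosts called higher (6) numbered 10 with total count scaling and 4 to 6 with a library left out, and other small RNAs called lower numbered 0 to 2. With total count scaling SNORD104 gave 0.066, SNORA70 0.070 and SNORA18 0.16. With a library left out, SNORD104 ranged from -0.38 to 0.14, SNORA18 from -0.13 to 0.059, SNORA73A from -0.57 to 0.016, SNORD14A from -0.49 to 1.03, SCARNA2 from -0.34 to 0.59 and SCARNA10 from -0.88 to 0.066. The cause of these shifts was not tested. Of the 25 called members 15 kept their call in every alternative that tested them, 10 lost it in at least 1, and 0 changed sign. Of those that kept it, SNORA51, SNORA73B and SNORD14E were tested in 15 of the 17 alternatives, and SNORD88B in 16. Stricter filters on the mean or the reads left them out. SNORA51, SNORA73B and SNORD14E had erlotinib means of 5.91, 6.32 and 6.33 and passed the minimum through DMSO. That these members kept their calls is therefore a description only. No paired analysis was possible because, although the sample titles number the samples 1 to 3 in both groups, the erlotinib columns of the table are numbered 4 to 6, and nothing ties those columns to single titles. The low counts limit single members, 78 of which had a mean under 30.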
